A study of Rattus norvegicus with 6 samples.

Results

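Apoptosis, necroptosis and pyroptosis are the main programmed routes by which cells die, and 38 genes of their core machinery were followed here in rat spleen. They were chosen by name, as BCL2 family proteins, caspases, inhibitors of caspases, death receptor adaptors, necroptosis kinases and inflammasome components. Of the 38 genes, 32 were measured by a probe set annotated with that gene symbol alone, out of 18166 genes measured in this way. Mcl1, Bcl2a1, Bax, Bbc3, Nlrc4 and Aim2 were not analysed here, as no probe set carried 1 of these symbols alone. Where a gene had several probe sets, the one with the highest mean over all arrays was used.

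Whole spleens of 6 male Sprague-Dawley rats were sampled 10 days after surgery, 3 of them after ligation of part of the portal vein (PPVL) and 3 after a sham operation. In PPVL a suture narrows the portal vein around a needle that is then withdrawn, which gives portal hypertension and an enlarged spleen without cirrhosis. In sham rats the vein was exposed and left untied. Each rat had an array of its own, and whole tissue was used, so that fewer cells of a type and less RNA per cell cannot be told apart. All values are log2 intensities after normalization by the authors with Robust Multiarray Average. A log2 fold change is the mean of the PPVL rats minus that of the sham rats, and the level of one gene is not comparable with that of another because their probes differ.

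In apoptosis, stress signals free BAX and BAK to open the outer mitochondrial membrane, and survival proteins such as BCL2 hold them back. BH3-only proteins relay the stress to both. Cytochrome c that leaves the mitochondria assembles with APAF1 into the apoptosome, which activates caspase-9, while death receptors at the cell surface activate caspase-8. When caspase-8 is blocked, RIPK1 and RIPK3 can instead drive MLKL to rupture the cell in necroptosis. Inflammasomes activate caspase-1, which cuts gasdermin D and releases interleukins, and this form of death is called pyroptosis. The spleen clears aged blood cells and houses lymphocytes, whose numbers depend on BCL2 family proteins.

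In limma's empirical Bayes test, fitted across all probe sets, no member passed an unadjusted p under 0.05 between PPVL and sham spleens. The study lists Bcl2 as higher in PPVL spleens by an empirical Bayes test at p under 0.05. Here Bcl2 lay just beyond that threshold and crossed it in some of the alternative fits described below. Thus 0 members were higher and 0 were lower, where 2.69% of all 18166 genes were higher, 1.55% were lower and 4.23% passed in either direction. After Benjamini-Hochberg adjustment over all probe sets 0 of the 18166 genes passed, and every member had an adjusted p of 0.973 or above. The smallest unadjusted p of a member was 0.0595, for Bcl2. The log2 fold changes of the members lay between -0.21 for Pycard and 0.24 for Bcl2, and 16 were positive and 16 negative. Their median was 0.02, beside 0.0048 over all genes. The median size of a log2 fold change, regardless of sign, was 0.06 in the members and 0.08 over all genes.

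A p that misses the threshold does not show equal expression, and the interval of each difference gives the sizes that remain possible on these arrays. In this fit the 95% interval of the difference, unadjusted for the number of genes, lay inside a 1.5-fold change in either direction in all 32 members. Casp12 all but reached that limit, with an upper bound of 0.5846 on the log2 scale, or 1.4996-fold. Bcl2l1 came next with a lower bound of -0.58. In 18 members the interval also lay inside a 1.25-fold change. Intervals of the alternative fits described below were not held against these limits, and some were wider, so the statement covers this fit alone. The standard error of Bcl2l1 was 0.19 here, against 0.22 with median centring and 0.23 without PPVL rat 3. The number of arrays, 3 per group, sets the width of these intervals, and with 3 rats in each the smallest two-sided p of an exact permutation test is 0.1.

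**Figure D1:**
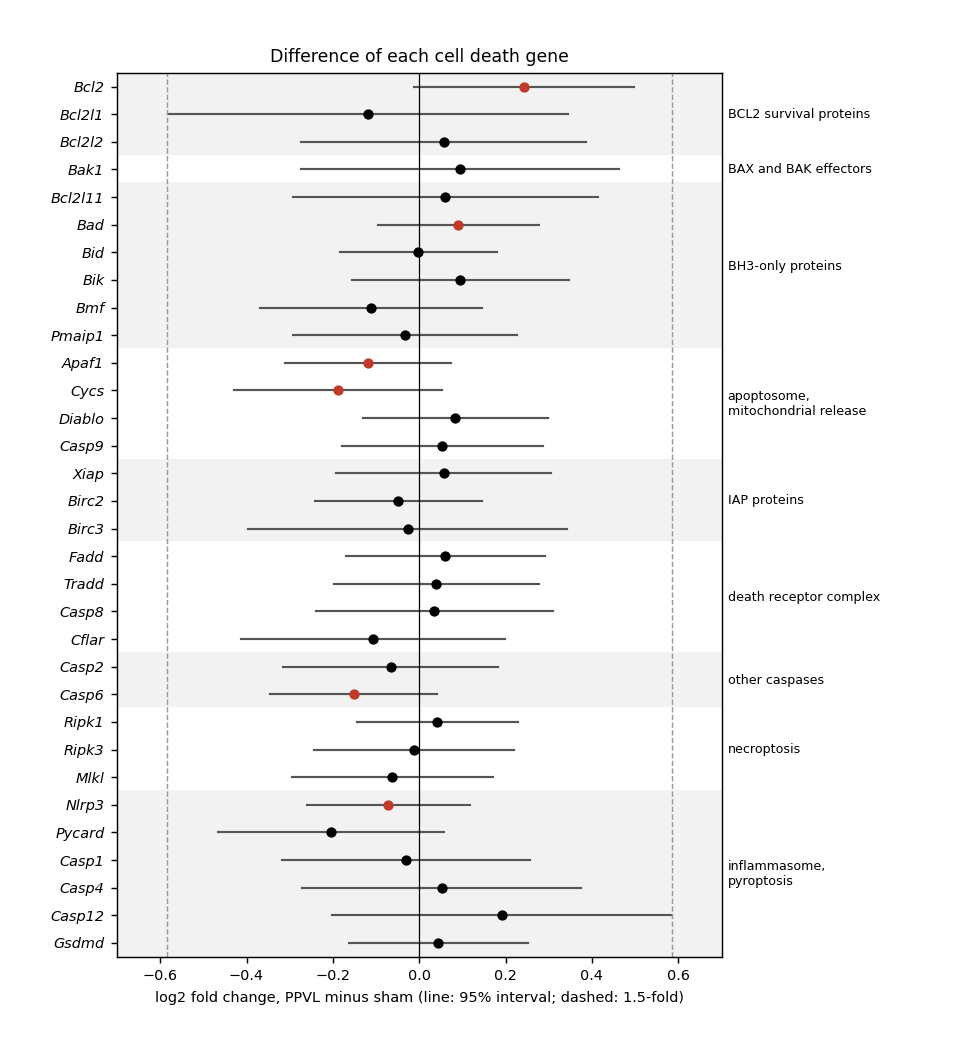
Log2 fold change (PPVL minus sham, horizontal axis) of each of the 32 members, by death pathway, with the 95% interval from limma as a line and a 1.5-fold change as dashed lines. Red points mark the 6 members whose PPVL and sham rats did not overlap, and every interval includes 0 and lies inside the dashed lines.

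The PPVL and sham rats did not overlap in 6 of the 32 members, or 18.8%, where this was so in 11.3% of all genes. Bcl2 and Bad were higher in every PPVL rat than in every sham rat, which is 6.25% of the members beside 6.64% of all genes. Apaf1, Cycs, Casp6 and Nlrp3 were lower in every PPVL rat than in every sham rat, which is 12.5% of the members beside 4.70% of all genes. The gaps between the groups were small in each, between 0.02 on the log2 scale for Cycs, Apaf1 and Nlrp3 and 0.06 for Casp6.

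Among the survival proteins, Bcl2 keeps lymphocytes alive by holding BAX and BAK in check. Bcl2 had log2 values of 10.51, 10.31 and 10.34 in PPVL rats 1 to 3, against 10.19, 10.26 and 9.99 in sham rats 1 to 3. Every PPVL rat lay above every sham rat, but the nearest pair was only 0.05 apart. The log2 fold change was 0.24 (standard error 0.11, 95% interval -0.01 to 0.50), a 1.18-fold difference with an unadjusted p of 0.0595 in limma. Without sham rat 2 it was 0.30 and past the threshold (unadjusted p 0.0484 in limma), and it also passed with a variance trend (0.0420) and when only probe sets with 1 symbol were fitted (0.0438). It was 0.17 without sham rat 3 and 0.18 without PPVL rat 1, neither past the threshold (unadjusted p 0.162 and 0.182 in limma).

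T cells express Bcl2, and the summed level of 5 T cell markers was 12.63, 12.46 and 12.37 in PPVL rats and 12.39, 12.49 and 12.26 in sham rats. The 3 measured B cell markers, of a list of 5, gave sums of 12.90, 12.77 and 13.00 in PPVL rats and 12.83, 12.88 and 13.04 in sham rats. None of these T and B cell genes passed the threshold (0 of 5 and 0 of 3 in limma). Among the T cell genes Cd4 had a log2 fold change of 0.28, while Cd3e, Cd3d, Cd3g and Cd8a had -0.03, -0.02, -0.01 and -0.25, so that the sum and most of its genes differed in sign. The part of these cells in the difference in Bcl2 was not tested.

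Bcl2l1 encodes BCL-XL, which in the mouse is needed for the survival of maturing red cell precursors. It had 7.29, 7.92 and 7.46 in PPVL rats and 7.88, 7.74 and 7.41 in sham rats. No other member spread so widely, with a range of 0.63 over the 6 rats, and the groups overlapped fully (log2 fold change -0.12, 95% interval -0.58 to 0.35). The summed level of the erythroid markers Slc4a1 and Klf1, the 2 measured of a list of 5, was 10.06, 12.02 and 11.00 in PPVL rats and 11.97, 12.12 and 10.76 in sham rats. The same 3 rats, PPVL rat 2 and sham rats 1 and 2, were high for Bcl2l1 and for the erythroid sum, and PPVL rat 1 was lowest for both. The summed level of 5 mitotic markers was also high in those 3 rats (12.44, 12.69 and 12.57) and lowest in PPVL rat 1 (11.17). These likenesses were seen after the values were known, and the part of erythroid or mitotic cells in the spread of Bcl2l1 was not tested. PPVL rat 1, the low end of each, also had an exocrine pancreas marker sum of 14.03, against 8.39 to 8.69 in the other rats. The part of that signal was not tested either. Bcl2l2, another survival protein, lay between 7.62 and 8.08 in PPVL rats and between 7.66 and 7.90 in sham rats.

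Of the pore-forming effectors, Bak1 was measured. It had 9.59, 9.54 and 9.64 in PPVL rats and 9.58, 9.75 and 9.16 in sham rats. The PPVL rats lay within 0.10 of each other, while sham rat 3 was well below the other sham rats. The log2 fold change of 0.09 (95% interval -0.27 to 0.46) became -0.07 without sham rat 3.

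BH3-only proteins start apoptosis by binding survival proteins or by activating BAX and BAK directly. Bad, which growth factor signaling switches off by phosphorylation, had 7.14, 7.14 and 7.15 in PPVL rats, against 7.08, 6.99 and 7.10 in sham rats. The SD of the PPVL rats was 0.0037, the log2 fold change was 0.09 (95% interval -0.10 to 0.28), and the unadjusted p in limma was 0.287. Bid links death receptors to mitochondria once caspase-8 has cut it. It had the narrowest range of all members, 0.06 over the 6 rats, with 9.38, 9.36 and 9.33 in PPVL rats and 9.35, 9.34 and 9.40 in sham rats.

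Bmf, which is released from the cytoskeleton when cells lose attachment, had 7.24, 6.96 and 7.15 in PPVL rats and 7.32, 7.26 and 7.11 in sham rats. Bik, a BH3-only protein of the endoplasmic reticulum, had 6.43, 6.64 and 6.45 in PPVL rats and 6.46, 6.27 and 6.51 in sham rats. The groups overlapped in both, with log2 fold changes of -0.11 for Bmf and 0.09 for Bik. Bcl2l11 encodes BIM, which removes lymphocytes in the absence of survival signals, and lay between 6.96 and 7.40 in PPVL rats and between 6.96 and 7.29 in sham rats. Pmaip1, the p53 target NOXA, lay between 7.57 and 7.70 in PPVL rats and between 7.51 and 7.85 in sham rats. The 6 measured BH3-only genes had a median log2 fold change of 0.03, 3 of them positive and 3 negative.

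**Figure D2:**
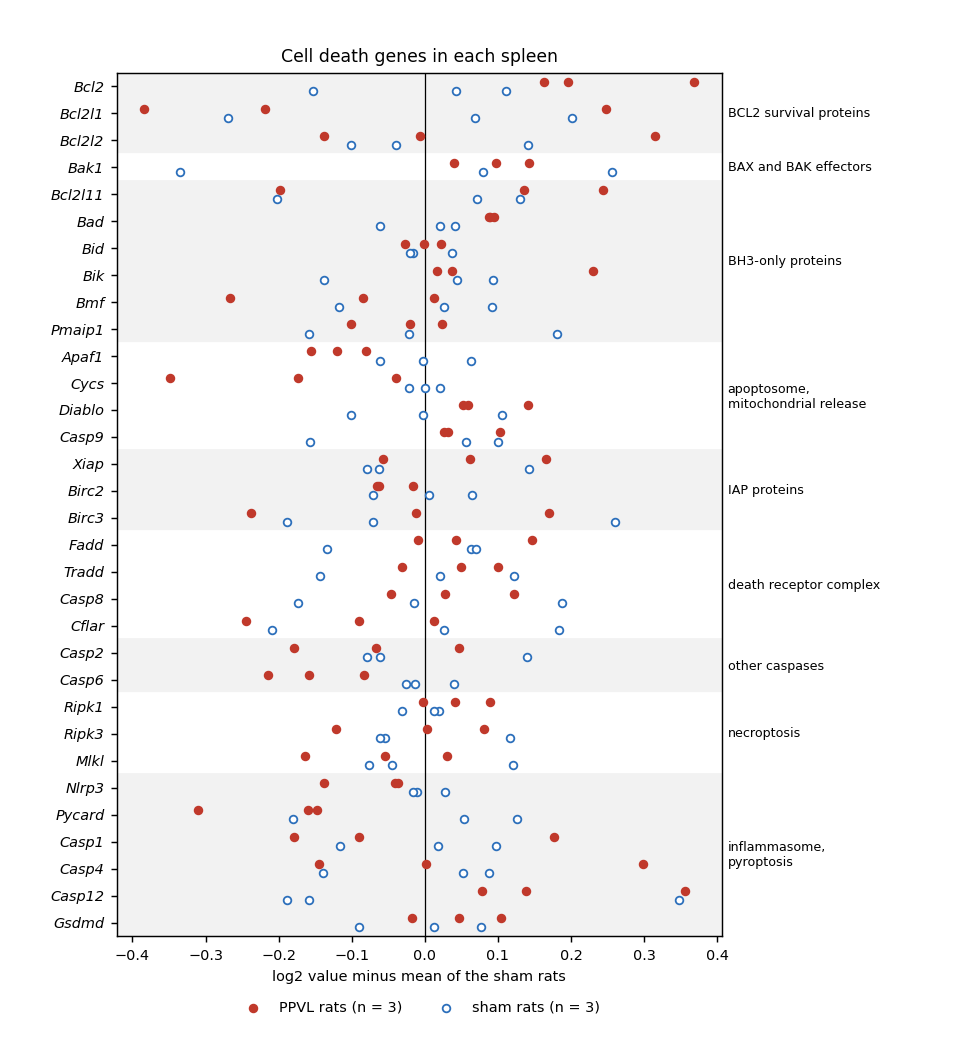
Log2 value of each of the 32 members in each rat minus the mean of its 3 sham rats (horizontal axis), grouped by death pathway; filled red points are PPVL rats and open blue points are sham rats. Bid varied by 0.06 over the 6 rats and Bcl2l1 by 0.63, and the groups are apart in Bcl2, Bad, Apaf1, Cycs, Casp6 and Nlrp3.

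Of the genes that act after the mitochondria open, the apoptosome scaffold and its trigger both lay lower in each PPVL rat. Cycs, the somatic cytochrome c of the respiratory chain, had 9.70, 9.88 and 10.01 in PPVL rats, against 10.03, 10.07 and 10.05 in sham rats. The sham rats differed by 0.04 and the PPVL rats by 0.31, with PPVL rat 1 lowest. The log2 fold change was -0.19 (95% interval -0.43 to 0.05, unadjusted p 0.108 in limma). It was -0.26 and past the threshold without PPVL rat 3 (unadjusted p 0.0470 in limma), but -0.11 without PPVL rat 1 and -0.11 as the mean of both Cycs probe sets (unadjusted p 0.331 and 0.430 in limma).

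Apaf1, which cytochrome c assembles into the apoptosome, had 9.39, 9.35 and 9.43 in PPVL rats, against 9.45, 9.51 and 9.57 in sham rats. Its log2 fold change was -0.12 (95% interval -0.31 to 0.07). Casp9, the initiator caspase of the apoptosome, had 8.01, 8.09 and 8.02 in PPVL rats and 8.08, 8.04 and 7.83 in sham rats, so that the groups overlapped. Diablo, also called SMAC, leaves the mitochondria and displaces IAP proteins from caspases. Diablo had 8.57, 8.66 and 8.57 in PPVL rats and 8.41, 8.51 and 8.62 in sham rats. The 4 genes had log2 fold changes on both sides of 0, between -0.19 for Cycs and 0.08 for Diablo.

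IAP proteins bind caspases or mark signaling proteins with ubiquitin. Xiap, the direct inhibitor of caspases, had 9.42, 9.54 and 9.64 in PPVL rats and 9.62, 9.40 and 9.41 in sham rats. Birc2 (cIAP1) had 8.07, 8.06 and 8.11 in PPVL rats and 8.13, 8.06 and 8.19 in sham rats. Birc3 (cIAP2), a target of NF-κB, had 10.30, 9.89 and 10.12 in PPVL rats and 9.94, 10.06 and 10.39 in sham rats. The groups overlapped in all 3 genes, and their log2 fold changes lay between -0.05 and 0.06. Birc2 and Birc3 neighbour each other in the RefSeq annotation of the GRCr8 assembly.

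The death receptor complex brings caspase-8 to receptors such as FAS and the TNF receptor. Casp8 had 9.94, 9.77 and 9.85 in PPVL rats and 9.65, 9.80 and 10.01 in sham rats. Cflar encodes c-FLIP, the relative of caspase-8 that restrains it, and its gene neighbours Casp8. Cflar had 9.68, 9.43 and 9.58 in PPVL rats and 9.46, 9.70 and 9.85 in sham rats. In the sham rats both genes were lowest in rat 1 and highest in rat 3, and in the PPVL rats both were highest in rat 1 and lowest in rat 2. That likeness was seen after the values were known, and its cause was not tested. The log2 fold changes were 0.03 for Casp8 (95% interval -0.24 to 0.31) and -0.11 for Cflar (95% interval -0.41 to 0.20). Fadd, the adaptor that holds caspase-8, had 7.61, 7.51 and 7.45 in PPVL rats and 7.53, 7.53 and 7.33 in sham rats. Tradd, the adaptor of TNF receptor 1, lay between 7.46 and 7.59 in PPVL rats and between 7.34 and 7.61 in sham rats.

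Casp6 is a caspase of the execution phase that cuts nuclear lamins. It had 7.65, 7.73 and 7.60 in PPVL rats, against 7.85, 7.80 and 7.79 in sham rats. The groups were apart by 0.06, the widest gap among the 6 members that did not overlap. The log2 fold change was -0.15 (95% interval -0.35 to 0.04, unadjusted p 0.105 in limma). Casp2, which responds to DNA damage and surplus centrosomes, had 9.04, 8.81 and 8.93 in PPVL rats and 8.93, 8.92 and 9.13 in sham rats.

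The 3 necroptosis genes overlapped between the groups and had log2 fold changes of -0.06 to 0.04. Ripk1, the kinase at the fork between survival, apoptosis and necroptosis, had 9.01, 8.97 and 8.92 in PPVL rats and 8.95, 8.94 and 8.89 in sham rats (log2 fold change 0.04, 95% interval -0.14 to 0.23). Mlkl, whose product punctures the plasma membrane, had 8.43, 8.24 and 8.34 in PPVL rats and 8.52, 8.35 and 8.32 in sham rats (log2 fold change -0.06, 95% interval -0.30 to 0.17). Ripk3, which phosphorylates MLKL, lay between 8.72 and 8.93 in PPVL rats and between 8.79 and 8.96 in sham rats (log2 fold change -0.01, 95% interval -0.24 to 0.22).

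Among the inflammasome genes, the adaptor Pycard (ASC) had the most negative log2 fold change of all members. Pycard had 9.69, 9.54 and 9.70 in PPVL rats and 9.90, 9.67 and 9.97 in sham rats. PPVL rats 1 and 3 lay just above sham rat 2, so the groups overlapped. The log2 fold change was -0.21 (95% interval -0.47 to 0.06, unadjusted p 0.106 in limma), and it was -0.30 and past the threshold without sham rat 2 (unadjusted p 0.0306 in limma). It was -0.14 without sham rat 3 and -0.15 without PPVL rat 2, neither past the threshold (unadjusted p 0.263 and 0.269 in limma). ASC is abundant in myeloid cells, and the summed level of 5 monocyte and macrophage markers was 13.62, 13.72 and 13.63 in PPVL rats and 13.53, 13.61 and 13.64 in sham rats. That sum overlapped between the groups, and 1 of its 5 genes, Cd14, passed the threshold, with the higher level in PPVL spleens. The part of these cells in the difference in Pycard was not tested.

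Nlrp3, the sensor of crystals, potassium loss and membrane damage, had 8.69, 8.69 and 8.59 in PPVL rats, against 8.72, 8.71 and 8.76 in sham rats. The groups were apart by 0.02, and the log2 fold change was -0.07 (95% interval -0.26 to 0.12). Casp1, the protease that inflammasomes activate, had 10.39, 10.48 and 10.75 in PPVL rats and 10.59, 10.45 and 10.67 in sham rats. Casp4, which senses bacterial lipopolysaccharide inside cells, lay between 9.23 and 9.67 in PPVL rats and between 9.24 and 9.46 in sham rats. Gsdmd, the pore former of pyroptosis, lay between 8.35 and 8.47 in PPVL rats and between 8.28 and 8.44 in sham rats.

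Casp12, which lies next to Casp4 and Casp1 in the rat genome, had 7.32, 7.04 and 7.10 in PPVL rats and 6.77, 6.80 and 7.31 in sham rats. Sham rat 3 was nearly as high as the highest PPVL rat, and the log2 fold change was 0.19 (95% interval -0.20 to 0.58). It depended on single rats: 0.36 and past the threshold without sham rat 3 (unadjusted p 0.0201 in limma), but 0.10 without sham rat 1, 0.11 without sham rat 2 and 0.11 without PPVL rat 1. The neighbours Casp1, Casp4 and Casp12 had log2 fold changes of -0.03, 0.05 and 0.19.

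**Figure D3:**
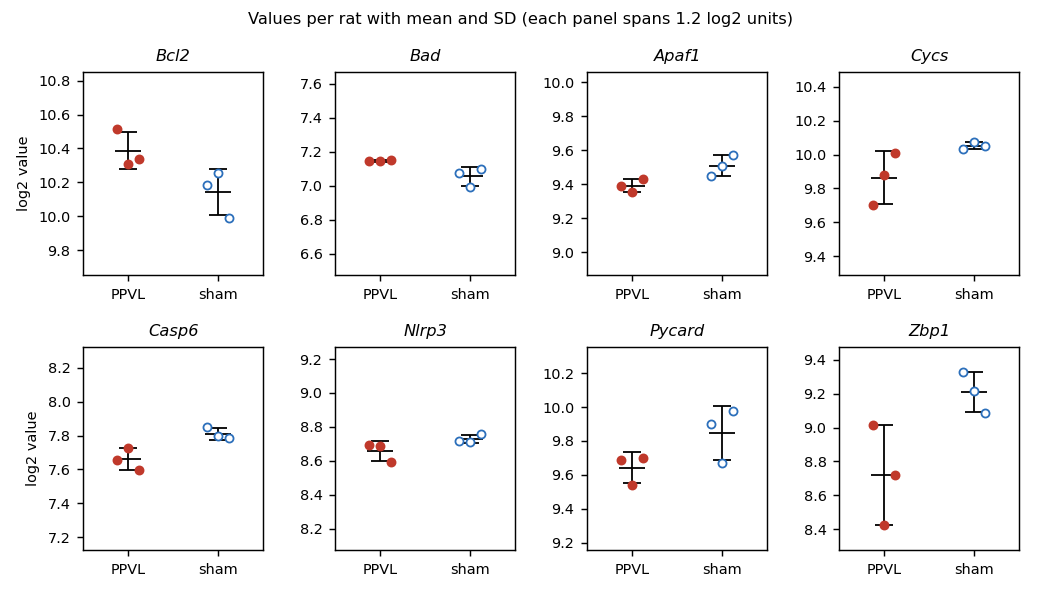
Log2 values (vertical axes, each spanning 1.2 units) per rat with mean and SD in PPVL rats (left, filled red) and sham rats (right, open blue), for the 6 members whose groups did not overlap, for Pycard and for Zbp1, a sensor outside the 32 members. Zbp1 had a log2 fold change of -0.49, against log2 fold changes of -0.21 to 0.24 for the 7 members.

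The range of a member over the 6 rats had a median of 0.33 on the log2 scale. Sham rat 3 held the highest or lowest value of 17 members, 11 times the highest, and PPVL rat 2 that of 14, 9 times the lowest. The other 4 rats each held 7 to 9 extremes. In 19 of the 32 members the sham rats spanned a wider range than the PPVL rats.

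Around these members, 67 further genes of the same pathways were listed after the paper had been read, and 57 of them were measured. They comprise death ligands and receptors, nuclease steps, other BCL2 family members, p53 and its targets, necrosome regulators, and inflammasome partners and products. In PPVL spleens 0 of the 57 were higher and 3, or 5.26%, were lower at the same threshold in limma, where 2.69% of all genes were higher and 1.55% lower. The 3 were Zbp1, Tnf and Aifm1, each with an adjusted p of 0.973. The study lists all 3, and Cyld, as lower under necroptosis on these same arrays, so this count is not independent evidence. Cyld had a log2 fold change of 0.17 here and did not pass (unadjusted p 0.424 in limma). The median log2 fold change of the 57 was -0.02. The counts turned on single rats, with 3 higher and 0 lower without sham rat 1, 2 higher and 2 lower without PPVL rat 1 or PPVL rat 3, and 1 higher and 1 lower without sham rat 2.

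Zbp1 encodes a sensor of Z-form nucleic acids that interferon induces and that can activate RIPK3. It was at 9.02, 8.43 and 8.72 in PPVL rats, against 9.33, 9.22 and 9.09 in sham rats. The groups did not overlap, and PPVL rats were lower by a log2 fold change of -0.49 (standard error 0.16, unadjusted p 0.0182 in limma). Without sham rat 1 it was -0.43 and not past the threshold (unadjusted p 0.0587 in limma). Its partners in necroptosis, Ripk3 and Mlkl, had log2 fold changes of -0.01 and -0.06.

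Tnf, the cytokine that signals through TRADD, RIPK1 and the caspase-8 complex, was at 6.89, 6.61 and 6.59 in PPVL rats, against 7.30, 7.06 and 6.87 in sham rats. Its log2 fold change was -0.39 (standard error 0.14, unadjusted p 0.0307 in limma), and PPVL rat 1 lay just above sham rat 3. Leaving out sham rat 1, sham rat 2, PPVL rat 2 or PPVL rat 3 ended the call, with log2 fold changes of -0.39 to -0.27. Its receptor Tnfrsf1a had a log2 fold change of 0.28 and did not pass (unadjusted p 0.0985 in limma). Aifm1, a mitochondrial flavoprotein that can move to the nucleus in caspase-independent death, was at 8.42, 8.50 and 8.51 in PPVL rats, against 8.66, 8.61 and 8.75 in sham rats. Its log2 fold change was -0.20 (standard error 0.08, unadjusted p 0.0495 in limma), and it did not pass when any 1 rat was left out, at -0.23 to -0.16, nor with array weights, a robust prior, quantile normalization or median centring.

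On the same arrays the interferon-stimulated genes were lower in PPVL spleens. All 9 measured genes of a list of 10 were lower at an unadjusted p under 0.05 in limma, with a median log2 fold change of -0.79. The study names several of them as lower on these arrays, so that their direction is not independent evidence. Of the cell type markers, 3 of 5 neutrophil precursor genes and 3 of 5 fibroblast genes were higher at the same threshold. Of 4 NK cell markers, Prf1 and Gzmb were lower at that threshold, while Klrd1 and Ncr1, with log2 fold changes of -0.29 and -0.07, did not pass. The probe set used for Gzmb, 1 of 3, lay at 4.74 to 5.54, below the median of every array. Of the markers of red pulp macrophages 0 of 5 passed in limma, and of those of B cells 0 of 3. The B cell markers Cd79a, Cd79b and Ms4a1, the red pulp macrophage genes Spic and Cd163 and the spleen stroma gene Tlx1 were all at log2 values of 8.20 or above in every rat. Tlx1 was also higher in PPVL spleens (log2 fold change 0.36, unadjusted p 0.00672 in limma), while Nkx2-5, the other stroma gene, lay between 7.03 and 7.57 and did not pass. Exocrine pancreas markers gave a sum of 14.03 in PPVL rat 1, against 8.39 to 8.69 in the other 5 rats. With PPVL rat 1 left out, no member passed in either direction in limma (0 of 32). None had passed with that rat either, so this count cannot show what it contributes. Without it some log2 fold changes moved toward 0 (Bcl2 from 0.24 to 0.18, Cycs from -0.19 to -0.11). Others moved away from 0 (Pycard from -0.21 to -0.23). The part of the pancreas signal in these values was not tested.

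**Figure D4:**
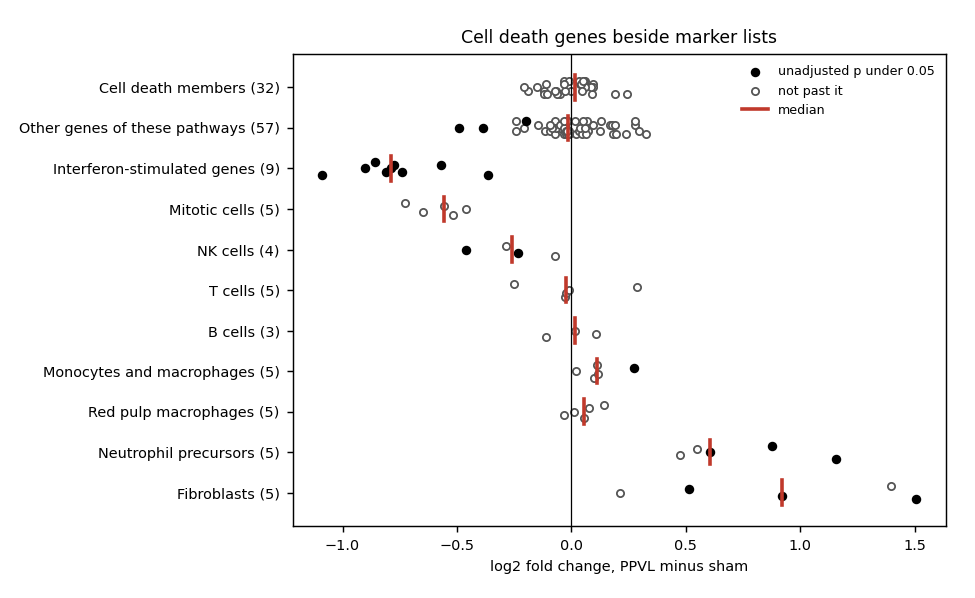
Log2 fold change (PPVL minus sham, horizontal axis) of single genes in the cell death members, in the other genes of these pathways and in marker lists, with the number of measured genes in brackets. Filled points passed an unadjusted p under 0.05 in limma and red bars are medians: the members centre on 0.02 and the interferon-stimulated genes on -0.79.

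Some cell death genes carry in their promoters the letters of the interferon-stimulated response element, and these are set here beside genes of the interferon list. RefSeq promoter windows of the GRCr8 assembly, 250 bases before to 50 bases after an annotated start of a gene, were available for 25 of the 32 members. For members and interferon genes only the first listed window of a symbol was searched, while the shares over all windows count every window. The core of the element, GAAA followed by any 2 letters and GAAA, searched on both strands, was in the windows of Casp1, Casp12 and Cflar, so in 3 of 25, and in 3.92% of all 33469 windows. Of the 4 interferon-stimulated genes with a window, 3 held it (Irf7, Ifit3 and Oas1a) and Mx1 did not, although Mx1 was lower too, with a log2 fold change of -0.79. Ifit3 and Irf7 are printed because they hold a match. The letters TTCCNGGAA of STAT factors were in 0 of 25 members and in 1.27% of all windows, and the letters of NF-κB, GGGG followed by any 4 letters and CC, were in 5 of 25 and in 18.2%. These motifs were not searched for overlaps with each other. A match is a description of letters and not of binding. The stretches below lie before the annotated start used for each window, which need not be the outermost start of the gene. They run 5′ to 3′ on the strand of the gene. Capitals show the match to the core, which is on the opposite strand in each.
Casp1: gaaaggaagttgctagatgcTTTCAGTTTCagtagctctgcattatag
Casp12: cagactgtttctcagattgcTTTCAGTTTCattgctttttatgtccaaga
Ifit3: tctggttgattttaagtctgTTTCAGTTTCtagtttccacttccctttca
Irf7: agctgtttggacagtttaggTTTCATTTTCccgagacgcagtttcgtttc

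The stretch of Casp1 is at chr8:10872782-10872829 (plus strand) and lies within the span of the Casp1 gene model. That of Casp12 is at chr8:10927130-10927179 (plus strand), outside any gene model. Those of Ifit3, at chr1:241527262-241527311 (plus strand, outside any gene model), and Irf7, at chr1:205800063-205800112 (minus strand, within the span of Irf7), belong to interferon-stimulated genes. The match lies 19 to 28 bases before the annotated start used in Casp1, 29 to 38 in Casp12, 35 to 44 in Ifit3 and 60 to 69 in Irf7. The same 10 letters, TTTCAGTTTC, stand in Casp1, Casp12 and Ifit3. Ifit3 was at 7.34, 7.57 and 7.41 in PPVL rats, against 8.44, 8.14 and 8.32 in sham rats (log2 fold change -0.86, standard error 0.11). Irf7 was at 9.72, 9.93 and 9.85 in PPVL rats, against 10.81, 10.92 and 10.20 in sham rats (log2 fold change -0.81, standard error 0.19). For Casp1, Casp12 and Cflar, described above, the groups overlapped. The lower bounds of their 95% intervals were -0.32, -0.20 and -0.41. The stretch of Cflar, which also holds the core, is not printed.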

How the data were processed

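Spleen RNA of 3 PPVL and 3 sham rats was hybridised to Affymetrix Rat Gene 2.0 ST arrays. The authors summarised probe sets with Robust Multiarray Average in Transcriptome Analysis Console, tools that the submitters' processing notes also name, and deposited them as log2 values. The genome build is not given in the sources used here. The table held 36685 probe sets with 0 missing values: 18511 carried 1 gene symbol, 575 several and 17599 none. Symbols came from the platform annotation and were updated through Entrez identifiers with RefSeq (18394 matched).

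Groups were compared in limma 3.58.1 (R 4.3.3, lmFit and eBayes, no covariate) across all probe sets, and p-values were adjusted over all of them. The script was tested on simulated data. Members and lists were chosen with earlier results of these data known, and after the paper had been read. The paper lists Bcl2 and Serpinb1a as higher and Tnf, Cyld, Aifm1 and Zbp1 as lower in PPVL spleens. Values per rat are given for members whose groups did not overlap, and in each pathway for those highest or lowest in level and in fold change; other members are given by range. The authors' miRNA arrays were not analysed here. A summed marker level is the log2 of the summed linear intensities. Alternatives were a replicate block, each rat left out, dim probe sets left out (below the 40th percentile of mean level), only probe sets with 1 symbol, quantile normalization, median centring, array weights, a variance trend, a robust prior on the variance and the mean of a gene's probe sets. Depth has no meaning for arrays, and their number limits the precision.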

Additional observations from a re-analysis of the deposited data

How the results depend on the processing

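At an unadjusted p under 0.05 in limma, the number of members was 0 to 1 higher and 0 to 1 lower in PPVL spleens when each rat was left out in turn. It was 1 higher when only probe sets with 1 symbol were fitted and with a variance trend (Bcl2 in both), and 0 in each direction in the other alternatives. Over all 15 settings the log2 fold changes of the members stayed between -0.30 and 0.36. Over all genes, leaving out 1 rat gave 295 to 539 higher and 168 to 503 lower, beside 488 and 281. The sign was the same in every setting for 16 members and turned for the other 16, none of them past the threshold. With 1 rat left out these lay between -0.0740 and 0.22 (Bak1), -0.30 and 0.0150 (Bcl2l1), -0.0403 and 0.19 (Bcl2l11), -0.0724 and 0.15 (Bcl2l2), -0.0142 and 0.0164 (Bid), -0.13 and 0.10 (Birc3), -0.13 and 0.0436 (Casp1), -0.12 and 0.0034 (Casp2), -0.0717 and 0.15 (Casp4), -0.0521 and 0.13 (Casp8), -0.0251 and 0.10 (Casp9), -0.0071 and 0.10 (Fadd), -0.0006 and 0.0827 (Gsdmd), -0.11 and 0.0573 (Pmaip1), -0.0592 and 0.0455 (Ripk3), and -0.0325 and 0.10 (Tradd). Array weights gave 0.0052 for Bid, 0.0337 for Birc3, 0.0003 for Casp1 and 0.0191 for Ripk3, and median centring gave 0.0023 for Bid. The cause was not tested.

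With the replicate block, the replicate number of the labels, 0 members passed in either direction in limma, and over all genes 425 were higher and 271 lower. Of the 57 other pathway genes, 3 were then higher and 2 lower, and Aifm1 no longer passed (unadjusted p 0.0869 in limma). Rats of the same number did not deviate together throughout (correlations over genes of -0.17, 0.23 and 0.17), so the numbers were not taken to pair the rats.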

Other observations

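Among the other genes of these pathways, 7 of 57 were higher in every PPVL rat than in every sham rat without passing an unadjusted p under 0.05 in limma, beside 6.64% of all genes. Their selection followed the inspection of their values, and Serpinb1a is also named by the study. Serpinb1a, an inhibitor of neutrophil proteases that also restrains inflammatory caspases, had 9.24, 9.60 and 9.25 in PPVL rats, against 9.20, 8.89 and 9.03 in sham rats (log2 fold change 0.32, standard error 0.14). Il18, a cytokine that caspase-1 matures, had 9.62, 9.74 and 9.97 in PPVL rats, against 9.57, 9.48 and 9.57 in sham rats (log2 fold change 0.24, standard error 0.11). Ninj1, which ruptures the plasma membrane late in lytic death, had 9.34, 9.49 and 9.29 in PPVL rats, against 9.21, 9.22 and 8.81 in sham rats. The other 4 were Il18bp, which binds and blocks interleukin-18, the death receptor Fas, and the p53 targets Cdkn1a and Pidd1, with log2 fold changes of 0.18, 0.18, 0.28 and 0.20. The neutrophil precursor markers summed to 9.03, 9.93 and 9.01 in PPVL rats, against 8.60, 8.65 and 8.27 in sham rats, and PPVL rat 2 was highest both for this sum and for Serpinb1a. Its part in that result was not tested.

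Bnip3l, a mitochondrial protein by which maturing red cells shed their mitochondria, had 10.03, 10.68 and 10.34 in PPVL rats and 10.72, 10.75 and 10.32 in sham rats. The rats high for it, PPVL rat 2 and sham rats 1 and 2, were those high for Bcl2l1 and for the erythroid and mitotic markers. The second probe set of Cycs had a log2 fold change of -0.04, with 7.82, 8.09 and 8.29 in PPVL rats and 8.50, 7.81 and 8.01 in sham rats, so that it did not show the separation of the probe set used for Cycs.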
